A study of Mus musculus with 28 samples.

Results

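The regions described here are the H3K27ac intervals that lay deep inside the longest genes of the mouse genome. An interval was a member when it lay wholly inside a protein-coding gene of more than 500 kb on chromosomes 1 to 19 and not within 1 kb of an end of any protein-coding gene. Of the 125826 intervals in the deposited list, 6840 met this rule, which is 5.53% of the intervals on chromosomes 1 to 19. Their hosts were 216 genes of 502 to 2271 kb (median 735 kb) that spanned 182 Mb when their lengths were added, and the members covered 2.12 Mb of it. The choice used only positions and gene lengths, not the strength of acetylation.

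H3K27ac is histone H3 acetylated at lysine 27. It was mapped by chromatin immunoprecipitation and sequencing in cranial neural crest cells, the embryonic cells that migrate into the face and form most of its skeleton and connective tissue. The cells were sorted from wild-type (WT) embryos at E10.5 in 4 populations with 1 library each, which the labels call FNP, Mx, Md and PA2, and the authors called intervals once on the merged reads of these 4 libraries. No mutant library enters the list, and the marker used for sorting is not given in the sources used here. The list holds 1 value for each interval, a score, which is the authors' and serves here only to describe and rank intervals within this list. Since the libraries were merged there are no replicates, the depth is unknown, no value has an error, and nothing below was tested. An interval cannot be assigned to a population, and strong acetylation in few cells cannot be told apart from weak acetylation in many.

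The mark is laid down by the acetyltransferases p300 and CBP and is found at active promoters and enhancers. Very long genes owe their length to introns, which can hold enhancers of the gene itself or of a neighbour and can also hold further promoters from which shorter transcripts start. Many of the longest genes encode adhesion molecules, channels and receptors of neurons, whereas a smaller number encode transcription factors and signalling proteins that act in mesenchyme. Over all protein-coding genes on chromosomes 1 to 19, 66.7% had an interval within 1 kb of an outer end. Among neural crest mesenchyme marker genes 8 of 9 had one (Tfap2a was the exception), with scores of 87 to 4697, and among neural and glial crest markers 3 of 3 (50 to 1442). Markers of other cells a sort could hold also had some. Endothelial markers had an interval at an end in 4 of 4 genes (scores 98 to 391), neuronal markers in 3 of 5 (81 to 4646), epithelial markers in 3 of 5 (234 to 1367), blood markers in 2 of 5 (1480 and 1492) and myogenic markers in 2 of 4 (143 and 339). The part of such cells in the results below was not tested.

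Several of the strongest members lay at annotated transcription starts inside their host genes. The following windows, from RefSeq's GRCm38.p6 annotation, run from 250 bases before to 50 bases after such a start and are shown because the 6 highest-scored members at internal starts lay there. An internal start is a start in the promoter table more than 1 kb inside the outer 5′ end of its gene. The sequences read 5′ to 3′ on the strand of the gene, and capitals mark CG dinucleotides.
Robo1, chr16:72662899-72663198, plus strand: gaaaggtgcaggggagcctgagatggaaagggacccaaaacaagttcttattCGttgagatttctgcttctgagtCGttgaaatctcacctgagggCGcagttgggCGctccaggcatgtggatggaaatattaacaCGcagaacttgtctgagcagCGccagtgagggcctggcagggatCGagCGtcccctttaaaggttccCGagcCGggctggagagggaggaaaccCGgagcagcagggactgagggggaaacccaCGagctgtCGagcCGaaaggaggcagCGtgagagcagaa
Esrrg, chr1:187651508-187651807, plus strand: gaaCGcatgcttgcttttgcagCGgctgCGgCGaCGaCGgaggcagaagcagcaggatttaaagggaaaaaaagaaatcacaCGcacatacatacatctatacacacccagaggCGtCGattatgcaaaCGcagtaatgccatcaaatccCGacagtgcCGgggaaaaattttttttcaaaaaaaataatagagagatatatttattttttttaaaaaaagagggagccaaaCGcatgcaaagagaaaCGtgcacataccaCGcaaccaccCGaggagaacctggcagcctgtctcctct
Nav2, chr7:49245939-49246238, plus strand: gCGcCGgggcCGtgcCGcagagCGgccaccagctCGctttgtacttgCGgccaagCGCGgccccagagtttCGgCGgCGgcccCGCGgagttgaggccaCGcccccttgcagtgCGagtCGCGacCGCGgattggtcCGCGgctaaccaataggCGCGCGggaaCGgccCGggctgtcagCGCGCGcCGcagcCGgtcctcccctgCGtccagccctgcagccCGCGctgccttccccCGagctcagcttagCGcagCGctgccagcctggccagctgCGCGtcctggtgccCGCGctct
Frmd4a, chr2:4400726-4401025, plus strand: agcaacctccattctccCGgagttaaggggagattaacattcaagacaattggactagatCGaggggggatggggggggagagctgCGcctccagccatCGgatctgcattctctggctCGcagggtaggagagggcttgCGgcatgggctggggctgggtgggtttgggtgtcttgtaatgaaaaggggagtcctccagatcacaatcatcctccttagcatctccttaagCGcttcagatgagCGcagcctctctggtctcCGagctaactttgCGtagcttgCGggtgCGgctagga
Sgcd, chr11:47379276-47379575, minus strand: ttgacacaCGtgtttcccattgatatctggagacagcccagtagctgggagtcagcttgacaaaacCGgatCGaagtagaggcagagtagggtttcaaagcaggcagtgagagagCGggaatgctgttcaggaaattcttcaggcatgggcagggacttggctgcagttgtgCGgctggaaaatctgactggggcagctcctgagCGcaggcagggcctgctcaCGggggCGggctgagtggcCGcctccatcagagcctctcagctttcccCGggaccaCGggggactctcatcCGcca
Foxp1, chr6:99028249-99028548, minus strand: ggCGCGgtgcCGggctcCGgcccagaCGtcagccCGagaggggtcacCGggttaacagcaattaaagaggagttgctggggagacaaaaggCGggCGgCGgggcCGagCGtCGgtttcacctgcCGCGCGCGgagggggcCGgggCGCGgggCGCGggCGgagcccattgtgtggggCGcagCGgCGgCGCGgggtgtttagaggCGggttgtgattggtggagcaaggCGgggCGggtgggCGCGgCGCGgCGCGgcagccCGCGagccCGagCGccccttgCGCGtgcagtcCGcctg
For contrast, the next windows are internal starts of the 3 sparsest long genes that had an internal start with no interval within 1 kb.
Fstl5, chr3:76075333-76075632, plus strand: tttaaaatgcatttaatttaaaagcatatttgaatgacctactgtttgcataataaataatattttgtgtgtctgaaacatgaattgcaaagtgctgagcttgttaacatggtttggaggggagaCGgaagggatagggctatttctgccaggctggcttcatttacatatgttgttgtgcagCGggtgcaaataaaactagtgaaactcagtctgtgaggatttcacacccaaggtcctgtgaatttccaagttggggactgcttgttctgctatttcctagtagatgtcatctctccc
Marchf1, chr8:66386051-66386350, plus strand: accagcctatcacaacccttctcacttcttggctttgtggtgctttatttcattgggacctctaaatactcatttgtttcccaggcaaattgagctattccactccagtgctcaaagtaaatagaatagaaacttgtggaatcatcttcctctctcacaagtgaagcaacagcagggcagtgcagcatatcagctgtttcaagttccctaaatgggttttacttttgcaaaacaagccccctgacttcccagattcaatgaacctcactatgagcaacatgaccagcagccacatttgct
Dpp10, chr1:124045510-124045809, minus strand: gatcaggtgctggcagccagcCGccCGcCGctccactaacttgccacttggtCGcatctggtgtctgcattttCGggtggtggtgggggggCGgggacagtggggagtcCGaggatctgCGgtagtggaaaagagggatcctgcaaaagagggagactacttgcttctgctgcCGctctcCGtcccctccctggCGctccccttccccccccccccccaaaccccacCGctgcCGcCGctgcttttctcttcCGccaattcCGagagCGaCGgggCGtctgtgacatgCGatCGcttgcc
The windows of Foxp1 and Nav2 held 44 and 42 CG dinucleotides, those of Esrrg, Robo1, Frmd4a and Sgcd 16, 15, 12 and 12. The unmarked windows of Fstl5 and Marchf1 held 2 and 0, while that of Dpp10 held 21. The CG count alone therefore did not separate the windows shown. The nearest interval was 1.135 kb from the Fstl5 start, just outside the 1 kb limit, against 99.7 kb for Marchf1 and 225 kb for Dpp10.

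Robo1, a receptor for Slit guidance ligands (chr16:72027518-73047491), had the highest score among members at internal starts. The interval, chr16:72662844-72664542, had a score of 8325 and ran from 305 bases before to 1393 bases after a start that lies 636 kb inside the gene. The interval at the outer 5′ end of Robo1 had a score of 518. In Esrrg, an orphan nuclear receptor gene, a member with a score of 4396 covered a start 43.2 kb inside the gene, and the interval at the outer 5′ end had a score of 511. Nav2, which encodes a microtubule-binding neuron navigator protein, had no interval at either outer end. Its highest member, with a score of 4224, lay 838 to 175 bases before a start 287 kb inside. Frmd4a, a scaffold gene of cell polarity, had members at all 3 of its internal starts. Their scores were 541, 4153 and 1476 at 135, 383 and 542 kb from the 5′ end, against 212 at the outer end. Sgcd, which encodes delta-sarcoglycan, had a member with a score of 3900 at 610 kb and 1448 at the outer end.

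Foxp1, a forkhead transcription factor gene (chr6:98925342-99522746), also had members at all 3 internal starts. The start at 494 kb had a score of 3636, the starts at 1.75 and 256 kb had scores of 424 and 137, and the outer 5′ end had 1614. Mecom, a zinc-finger transcription factor gene, had a score of 2886 at a start 497 kb inside and 1023 at its outer 5′ end. Rarb, the gene of retinoic acid receptor beta, had 2532 at a start 507 kb inside and 68 at the outer end. The adhesion gene Tenm4 had 1799 at 40.4 kb, with no interval at its outer 5′ end and 468 at its 3′ end. These genes were picked from the highest scores at internal starts. Over all 60 genes with a member at an internal start, the highest such member had a higher score than the outer 5′ end in 18, the outer 5′ end had the higher score in 17, and the outer 5′ end was unmarked in 25. Magi1, a scaffold gene with 1517 at an internal start and 4986 at the 5′ end, and Kalrn, with 81 and 7679, were of the second kind. The 25 genes with an unmarked 5′ end include some whose highest such member lay close to that end. The starts concerned were at 1.75 kb in Cadps2 and 7.26 kb in Nkain2, whereas that of Nrxn3 was 1090 kb inside.

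**Figure D1:**
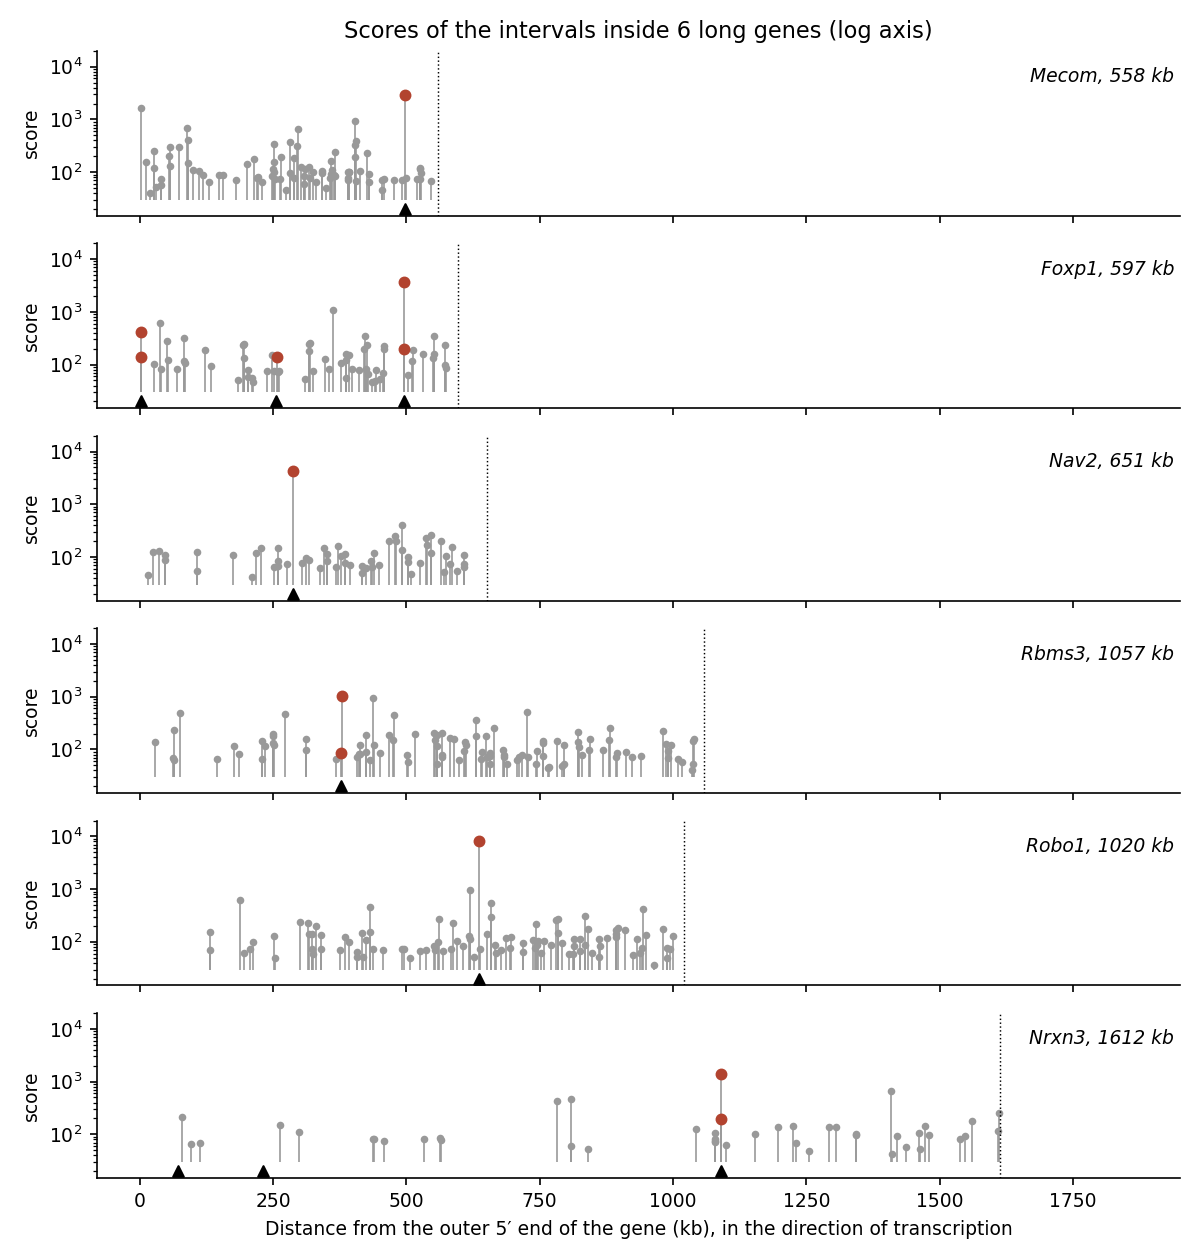
Position (kb from the outer 5′ end, in the direction of transcription) and score (log axis) of each member in 6 long genes; red points are members within 1 kb of an internal start, black triangles are internal starts, grey points are other members and dotted lines are the 3′ ends. The highest point of Mecom, Foxp1, Nav2, Rbms3, Robo1 and Nrxn3 is red, and 2 of the 3 internal starts of Nrxn3 have no member. These 6 genes are picked examples and do not stand for all long genes. In Lrba, Hdac9 and Sox5, for instance, each with 1 internal start, the highest member did not lie there.

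The promoter table gave starts for 169 of the 216 long genes, and 82 of them had 1 or more internal starts, 135 in all. A member lay within 1 kb of 89 of these starts, in 60 genes. Another 2 had only an interval that was not a member, and 44 had none. Among internal starts of all protein-coding genes on chromosomes 1 to 19, 60.9% had an interval within 1 kb, so the 91 of 135 long-gene starts (67.4%) stood near that background. With starts closer than 1 kb joined, 81 of 122 positions (66.4%) had an interval. The highest member within 1 kb covered the start itself in 48 cases, lay downstream in 25 and upstream in 16.

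Members at internal starts were few but strong. They numbered 105 (1.54% of members), had a median score of 279 (quartiles 106 and 1333) and a median width of 616 bp. Another 194 members (2.84%) lay at the end of a non-coding gene or pseudogene, with a median score of 109. The remaining 6541 members had a median score of 93 and a median width of 232 bp. These counts cover all 216 genes, and 1153 members lay in genes that are not in the promoter table and could not be placed at an internal start. Among the 20 highest-scored members, 6 were at internal starts and 5 at non-coding ends, and among the highest 100 these numbers were 32 and 15. Unlike the classes above, these counts can overlap, and the highest members of Robo1 and Esrrg were in both.

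Several of the highest members had no start in the promoter table or non-coding gene end within 1 kb. A narrow interval of 263 bp in the phosphodiesterase gene Pde1c had a score of 3555. Zfhx3, a zinc-finger homeobox gene, had a score of 6262 at chr8:108703684-108705186, and 2767 at an internal start 435 kb from the 5′ end of the gene. Auts2, a gene linked to Polycomb complexes, had 6128 at 99.7 kb from its nearer end, but it has no start in the promoter table, so an internal start there could not be seen. Camta1, a calmodulin-binding transcription activator gene, had 5061 at 68.3 kb, and Mdga2, a neuronal adhesion regulator, had 4904 at 163 kb. The scaffold gene Magi2 had 5193 just 1.85 kb from its nearer end, close to the 1 kb limit of the rule.

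Other high members lay at ends of non-coding genes inside the host. Npas3, a neuronal PAS-domain transcription factor gene, had a score of 6722 at the end of the non-coding RNA gene Gm51419, 4.33 kb from its own nearer end. Ptprd, the gene of a receptor tyrosine phosphatase, had 4741 at the non-coding gene Gm42303. The highest member of the phosphodiesterase gene Pde4d, with 3196, lay at the microRNA gene Mir1904. The teneurin gene Tenm3 had 2738 at the non-coding gene Gm19744. Its higher pair of neighbouring members, with scores of 4318 and 3876 and separated by less than 1 kb, lay at no non-coding gene end.

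Most members were weaker and narrower than intervals at promoters. The median score of members was 94 (quartiles 70 and 143) and 45.3% reached 100. Intervals inside genes of at most 500 kb had a median score of 99 and those outside protein-coding genes also 99, whereas intervals within 1 kb of protein-coding gene ends had 1134. The members' median width of 233 bp compared with 245 bp inside shorter genes. Median scores per gene, over the 165 genes with at least 10 members, ran from 59.5 to 169.5.

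The number of intervals differed widely between genes. Density, the number of members per 100 kb of gene, had a median of 2.99 over the 216 long genes (quartiles 1.27 and 6.23) and ran from 0 to 17.1. At least 1 member lay in 213 genes, whereas 42.0% of all protein-coding genes on chromosomes 1 to 19, most of them short, had an interval by the same rule. At least 5 per 100 kb were found in 72 long genes (33.3%), against 26.8% of all these genes and 58.3% of genes of 200 to 500 kb. These 72 genes held 64.9% of all pairs of a gene and a member, and the 22 densest genes held 24.9%. Under 1 per 100 kb was found in 48 genes.

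**Figure D2:**
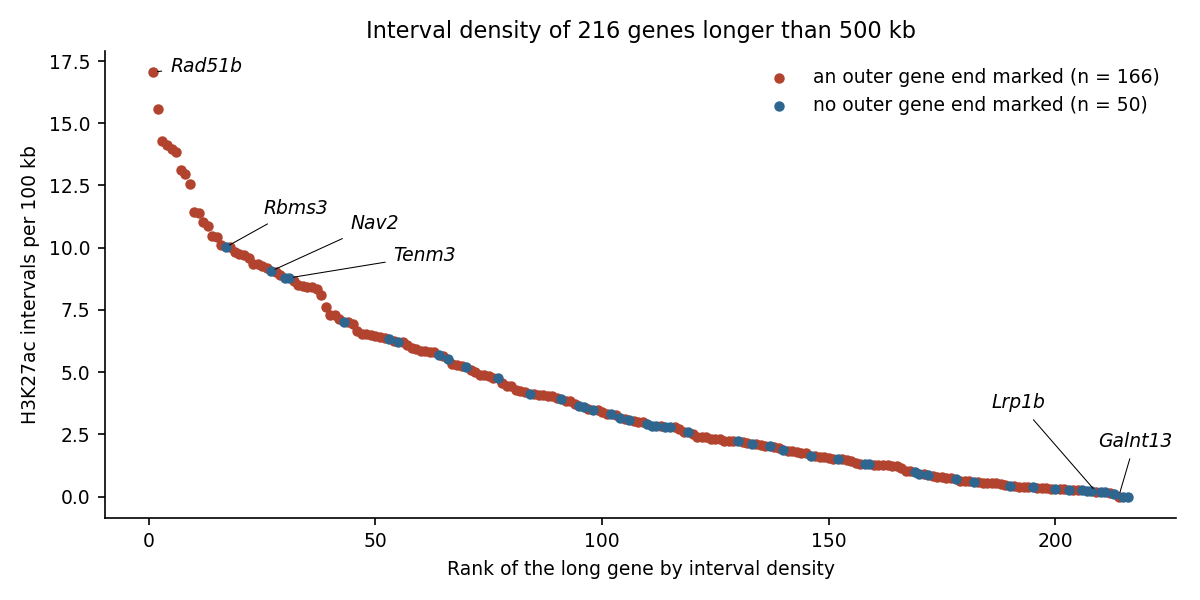
Intervals per 100 kb (vertical axis) of the 216 long genes, ordered by density (horizontal axis), coloured by whether an outer gene end carried an interval. Density falls from 17.1 in Rad51b to 0 in Galnt13, and Rbms3, Nav2 and Tenm3 are dense genes with no marked outer end.

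Longer genes did not simply hold more intervals per unit length. The median density was 2.77 in genes of 20 to 50 kb, 3.91 in those of 50 to 100 kb, 5.82 in those of 100 to 200 kb and 6.29 in those of 200 to 500 kb, and 2.99 in the long genes. Within the long genes it was 4.27 for the 98 genes of 500 to 700 kb, 2.58 for the 63 of 700 to 1000 kb and 2.03 for the 55 longer ones. Across the 216 genes, Spearman's rank correlation between length and density was -0.21, given as a description of genes in 1 list. The 5 longest genes showed how wide the spread was. Ptprd (2271 kb) had 2.20 per 100 kb, Cntnap2 (2241 kb), a neurexin-family adhesion gene, 1.74, Lsamp (2197 kb), an immunoglobulin-type adhesion gene, 1.64, and the lipoprotein receptor gene Lrp1b (2058 kb) 0.194. Macrod2 (1998 kb), which encodes an ADP-ribose hydrolase, had 8.41 and held 168 members, against 4 in Lrp1b.

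The genes nearest to the length limit of 500 kb were as follows. Just below it, Dnm3, the dynamin 3 gene that hosts the microRNA precursor Dnm3os, had 99 intervals by the same rule (20.0 per 100 kb over 496 kb), Lrrc7 had 6 (1.21) and Cacna1e 14 (2.83). Just above it, Edil3 had 12 (2.39), Dock1 17 (3.38) and Samd12 10 (1.99).

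The 10 densest genes came from 5 of the 7 lists of gene function described below. Rad51b, a gene of homologous recombination (chr12:79297282-79848260), led with 94 members (17.1 per 100 kb). The highest score among its members was 647 and its ends had scores of 2748 and 345. Mecom (chr3:29951296-30509759) followed with 87 members (15.6), Lrba, a vesicle trafficking gene, with 80 (14.3), and Hdac9, a class IIa histone deacetylase gene (chr12:34047580-34917095), with 123 (14.1). Smyd3, a lysine methyltransferase gene, had 79 (14.0), and Cdkal1, which encodes a tRNA-modifying enzyme, 92 (13.9). Nfia, a nuclear factor I gene (chr4:97578066-98118876), had 71 (13.1), Tenm4 96 (13.0), Frmd4a 75 (12.6) and Zfhx3 78 (11.4). All 10 had an interval at an outer end, against 76.9% of all long genes.

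Within these genes, the densest 100 kb held between 23.1% (Zfhx3) and 34.2% (Smyd3) of the members. The densest 100 kb of Hdac9 held 30 members (24.4%), while its longest stretch without a member was 103 kb. The densest 100 kb of Rad51b, Mecom and Smyd3 held 27 each, and their longest empty stretches were 21.3, 24.4 and 33.2 kb. In Tenm4 the corresponding values were 26 members and 96.7 kb. Over the 216 long genes, the longest empty stretch took a median of 21.2% of the gene, and in 36 genes it took at least 50%.

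Among the sparsest genes were several of neuronal membranes. Galnt13, a glycosyltransferase gene (chr2:54436211-55118309), had no member in 682 kb although its 5′ end carried an interval with a score of 217. Cntnap5c, a neurexin-family gene, and Skint5, a gene of an immunoglobulin-like family, had no member and no marked end. Cntnap5a had 1 member (0.111 per 100 kb), the follistatin-like gene Fstl5 1 (0.157), Csmd3 2 (0.165), the glutamate receptor gene Grm5 1 (0.181), Lrp1b 4 (0.194), the ephrin receptor gene Epha6 2 (0.206) and the ubiquitin ligase gene Marchf1 2 (0.234). The 2 members of Epha6 lay within 1 kb of an internal start 5.38 kb inside the gene, and its longest stretch without a member was 964 kb. In Csmd3 the longest stretch without a member was 954 kb.

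Whether a gene end was also marked divided the genes only in part. An interval lay within 1 kb of an outer end in 166 of 216 long genes (76.9%), against 66.7% of all protein-coding genes on chromosomes 1 to 19 and 79.1% of those of 200 to 500 kb. Both ends were marked in 14 (6.48%), against 10.3%. The median density was 3.44 (quartiles 1.37 and 6.55) in genes with a marked end and 2.40 (quartiles 0.618 and 3.86) in the 50 without. In the 14 genes with both ends marked it was 6.31. The quartile ranges overlapped widely. The order held in genes of 500 to 700 kb (4.88 in 80 genes against 2.85 in 18) and of 700 to 1000 kb (2.99 in 47 against 1.58 in 16). It turned in genes over 1000 kb, where it was 1.64 in 39 marked genes and 2.68 in 16 unmarked ones. The median of the per-gene median scores was 93.5 with a marked end and 95.3 without. Across the 166 marked genes, Spearman's rank correlation between density and the higher end score was 0.36.

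Where the strand was known, the marked end was mostly the 5′ end. Of 169 such genes, 127 had a marked 5′ end (75.1%, against 63.6% of all protein-coding genes with a known strand) and 19 a marked 3′ end (11.2%, against 13.4%). The 5′ end alone was marked in 114, the 3′ end alone in 6, both in 13 and neither in 36. The median score was 630 at marked 5′ ends and 96 at marked 3′ ends. Density had a median of 3.50 with the 5′ end marked and 2.83 without. Nfia, Tenm4 and Zfhx3, among the 10 densest genes, were marked at the 3′ end alone, with scores of 86, 468 and 89. In Nfia an internal start 3.88 kb inside had a member with a score of 259, and its highest member, with 2155, lay 200 kb inside at no internal start.

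Some dense genes without a marked end had a member at an internal start. The 5 densest genes of this kind were Rbms3, an RNA-binding protein gene (10.0 per 100 kb, 106 members), Nav2 (9.06, 59), Psd3, an exchange factor gene for ARF proteins (8.80, 46), Tenm3 (8.79, 114), and Arhgap24, which encodes a GTPase-activating protein (7.02, 49). Rbms3 (chr9:116572746-117629913) had its highest member, with a score of 1046, at a start 377 kb inside, and Nav2 had the one described above. Tenm3 had 1 internal start, without a member, and Psd3 and Arhgap24 were not matched in the promoter table. Of the 36 unmarked genes in the table, 21 had a start with an interval, and with these counted 187 of 216 long genes had a marked end or start. The 5 genes with a marked end and the lowest density were Galnt13, Fstl5, Lrp1b, the synaptic adhesion gene Lrrtm4 (2 members, 0.253 per 100 kb) and the sarcoglycan gene Sgcz (3 members, 0.262). The end score of Sgcz was 1618, that of Fstl5 279, that of Lrp1b 251 and that of Lrrtm4 75.

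Grouped by what the host gene encodes, transcription factors and chromatin regulators had the most intervals per length. The lists were chosen with earlier results of these data known, so their order is a description only. The 18 genes of the transcription and chromatin list had a median of 9.59 per 100 kb, against 2.99 over all long genes. The lists also differ in gene length, since these 18 genes add up to 12.6 Mb and the 45 of synaptic adhesion and axon guidance to 47.2 Mb. The part of length in the differences between lists was not tested. At least 5 per 100 kb were found in 15 of the 18, against 33.3% of all long genes, and all 18 had a marked end, against 76.9%. Their 1136 members had a median score of 102.5. Mecom and Hdac9 were the densest and Zfp804b, a zinc-finger gene, the sparsest at 0.348. Sox6 and Sox5, regulators of cartilage formation, had 62 members over 570 kb and 100 members over 954 kb. Sox6 had members at 3 of its 6 internal starts, the highest with a score of 1627 at 9.73 kb, whereas the 1 internal start of Sox5 had none. Rarb had 64 members (9.82 per 100 kb).

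The 29 signalling genes had a median of 5.25 per 100 kb, and 16 of them had at least 5, against the same 33.3%. The list holds Cdkal1, its densest entry, although that gene encodes a tRNA-modifying enzyme. Next came the cyclin-dependent kinase gene Cdk14 with 9.36, and Lrp1b was the sparsest. Genes of 1 family can stand on different lists. Ptprg (6.53), Ptprm (6.25), Ptprk (5.93) and Ptprn2 (3.66) are on the signalling list. Ptprd (2.20), Ptprt (1.58) and the receptor gene Erbb4 (1.02) are on that of synaptic adhesion and axon guidance. The part of this assignment in the differences between lists was not tested. The 24 genes of adhesion, cytoskeleton and matrix had a median of 3.85, led by Frmd4a and by Thsd4, an extracellular matrix gene, with 9.73. The 21 genes of metabolism, trafficking and genome maintenance had a median of 3.11 and were spread from Galnt13 without a member to Rad51b. Among 5 RNA-binding protein genes (median 3.71), Rbms3 had 10.0, the splicing factor gene Rbfox1 3.93 (60 members, highest score 351, no marked end) and Khdrbs2 0.563.

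Genes of neuronal adhesion and transmission had the lowest median densities of the lists, with dense exceptions. The 45 genes of synaptic adhesion and axon guidance had a median of 1.76, and 15 had under 1 per 100 kb, against 22.2% of all long genes. Even so, Tenm4, the Slit ligand gene Slit3 (11.4) and Robo1 (10.1) were among the densest long genes. Robo2, the related receptor gene, had 4.11. The teneurin gene Tenm2 had 3.33. The presynaptic adhesion gene Nrxn3 had 2.79, with no marked outer end. The 33 genes of ion channels, neurotransmitter receptors and synaptic scaffolds had the lowest median of the 7 lists, 1.51, and 13 had under 1, against the same 22.2%. Their densest members were the scaffold genes Magi1 (9.04) and Erc2 (8.41), and Grm5 was the sparsest. The 41 genes on no list had a median of 2.38. Median member scores differed little between the 7 lists, from 89 to 102.5.

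**Figure D3:**
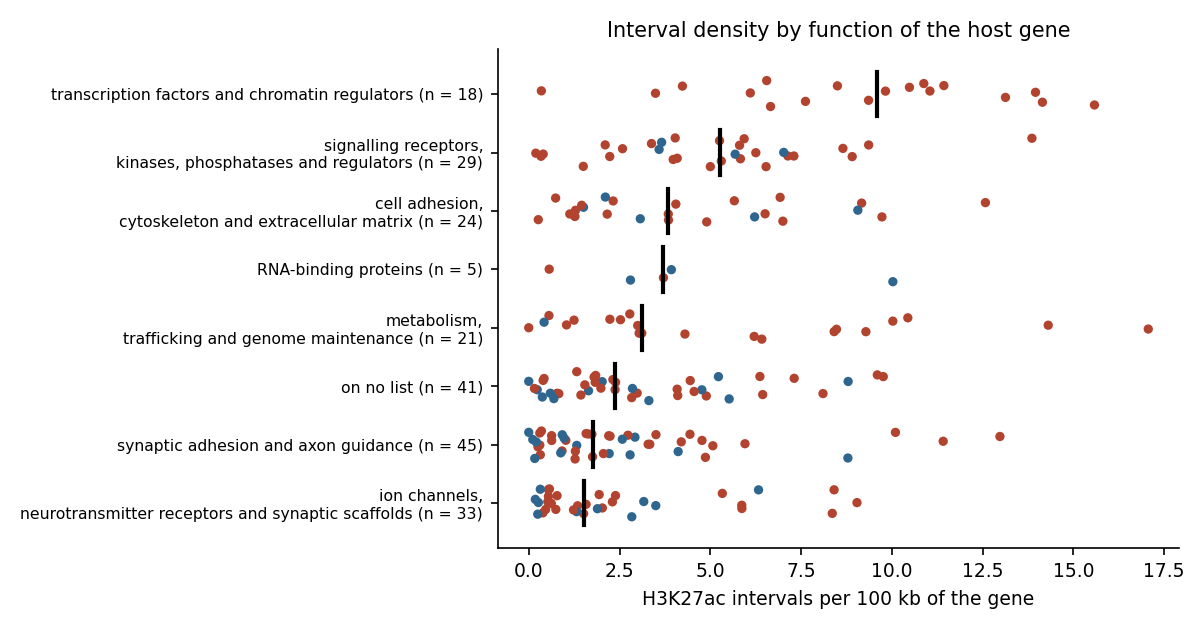
Intervals per 100 kb of gene (horizontal axis) by list of gene function, 1 point per long gene; red points have a marked outer end, blue points have none, and black bars are medians. The transcription and chromatin list has the highest median, 9.59, and the list of channels, receptors and synaptic scaffolds the lowest, 1.51. The lists were chosen with earlier results of these data known.

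Density inside a gene went along with density outside it. The 500 kb on either side of the long genes had a median of 3.25 intervals per 100 kb (mean of both sides, same rule for gene ends), and Spearman's rank correlation between this value and the density in the gene was 0.67 over 216 genes, which share the list and can share flanks. The gene was denser than both of its flanks in 80 cases, sparser than both in 50 and between them in 86. Intervals within 1 kb of gene ends were not counted, but the length of a flank stayed 500 kb. Flanks with many gene ends can therefore lose more intervals than a gene interior, and the part of this was not tested. Of the transcription and chromatin genes, 15 of 18 were denser than both flanks and 1 sparser. Mecom had 15.6 inside against 4.0 and 2.4 in its flanks, and Rarb 9.82 against 1.4 and 3.6. Nav2 had 9.06 against 1.0 and 2.2, and Robo1 10.1 against 2.8 and 3.6. Rad51b, by contrast, had a flank of 15.8 beside one of 3.6, and Zfhx3, with 11.4 inside, one of 15.4. Hdac9, whose neighbour is the mesenchyme regulator gene Twist1, had 14.1 inside and 9.2 and 3.2 in its flanks. Of the 33 genes of channels, receptors and scaffolds, 4 were denser than both flanks and 9 sparser.

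**Figure D4:**
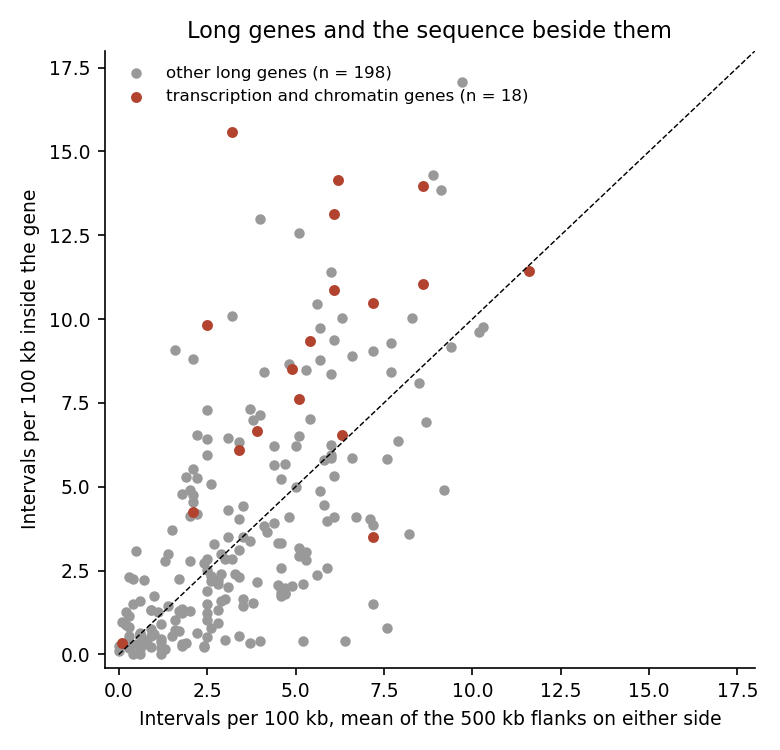
Intervals per 100 kb inside each of 216 long genes (vertical axis) against the mean of the 500 kb on either side (horizontal axis); red points are the 18 transcription and chromatin genes, and the dashed line marks equal values. Most red points, 15 of which exceed both flanks, lie above the line.

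Members were more frequent toward the 3′ end of their genes. In the genes with known strand, 5718 pairs of a gene and a member fell into 5 equal parts of gene length, from 5′ to 3′, as 15.9%, 17.6%, 19.2%, 23.5% and 23.8%. The pooled density rose from 3.26 to 4.86 per 100 kb between the part at the 5′ end and the part at the 3′ end. In the 42 genes without a marked 5′ end the shares of the first and last parts were 12.4% and 26.7%, and in the 127 genes with one 17.1% and 22.8%. Among the 130 genes with at least 10 members, the last part held the most members in 34 and the first in 20, and the median shares were 23.1% and 15%. Median scores by part stayed between 88 and 97. Counted from the 5′ end in steps of 50 kb, pooled density was 3.57 per 100 kb in the first step and 4.50 in the step from 450 to 500 kb, while the median over genes was 2 in each of the 10 steps.

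Starts with an interval nearby were richer in CG dinucleotides than starts without. Over the 271 starts of long genes, the windows of 250 bases before to 50 after the start held a median of 15 CG where an interval lay within 1 kb (201 starts) and 6 where none did (70 starts). At internal starts the medians were 9 (91 starts) and 6 (44), and at other starts of long genes 21 (110) and 6 (26). For protein-coding genes other than the long ones these medians were 21 and 3, and the median of all 32851 windows in the table was 7. At least 10 CG were found in 68.7% of long-gene windows with an interval and 24.3% without, against 43.5% of all windows. For the other protein-coding genes these shares were 82.3% with an interval and 10.2% without, a wider contrast. The motif GGGCGG, searched on both strands, was in 47.3% and 22.9% of long-gene windows, against 35.7% of all windows. In the other protein-coding genes it was in 64.6% and 12.7%. TATAAA, also on both strands, was in 5.97% and 18.6% of long-gene windows, against 13.6% of all windows. The other protein-coding genes had it in 6.68% and 24.7%. These counts describe letters in the windows and do not show that a factor binds there.

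**Figure D5:**
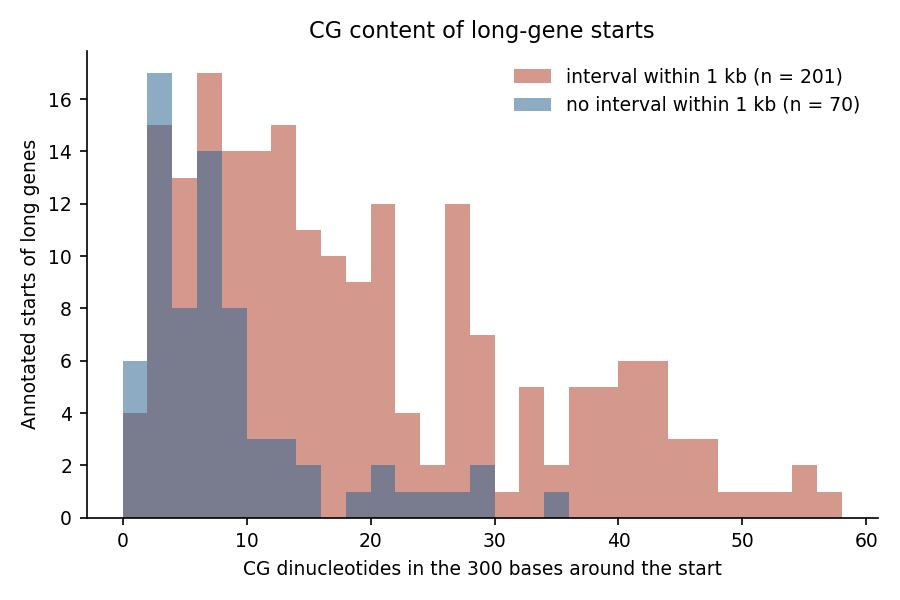
Number of CG dinucleotides (horizontal axis) in the 300 bases around 271 annotated starts of long genes; red bars are the 201 starts with an interval within 1 kb and blue bars the 70 without, drawn over each other. The medians are 15 and 6, and starts with an interval reach up to 57 CG.

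Some host genes overlapped each other, so that 6903 pairs of a gene and a member came from 6840 members. Schip1 and the read-through gene Iqschfp share their interior and had 31 and 35 members. The gene models Gm37013, Gm38666 and Gm38667 on chromosome 18, which overlap the clustered protocadherin genes, had 16 each (1.80, 1.83 and 1.84 per 100 kb). Apart from such pairs, 63 members also lay inside a shorter protein-coding gene. Of these, a member in the carboxypeptidase gene Agbl4 had the highest score, 4034.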

How the data were processed

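The analysis used 1 deposited list of H3K27ac intervals from 4 WT libraries of cranial neural crest cells at E10.5. Per the text deposited with it, the authors called it on merged reads with MACS2 2.1.3.3, at a q-value limit of 0.001, without a model or a named control, keeping duplicates and extending reads by 141 bp with shift 0. The submitters' processing notes list bcl2fastq 2.17, Bowtie 1.1.1 and the builds GRCm38 and mm10, which name the same assembly. The score of each interval is the authors' deposited value in column 5; depth is unknown. The other libraries of the 28 in the series were not analysed here.

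Gene positions came from a RefSeq table of GRCm38.p6 with 20665 protein-coding genes on chromosomes 1 to 19. Strand and starts came from RefSeq promoter windows, which matched 169 of 216 long genes. An end was marked when an interval overlapped 1 kb on either side of it. Genes were named by rule: the 10 densest and 10 sparsest, the 5 longest, hosts of the highest-scored members, dense genes without and sparse genes with a marked end, and extremes of each function list; others were chosen after their values were seen. The members and lists were chosen with earlier results of these data known. Counting used Python 3.11.15 with pandas 2.3.3 and scipy 1.17.1, and the rule was tested on simulated data. Member sequences were not used here; RefSeq start windows are shown instead. Some genes are not reported here.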

Additional observations from a re-analysis of the deposited data

How the results depend on the processing

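No paired analysis was possible because the list was called on merged reads and holds no samples; leaving out a library was impossible for the same reason. With scores of at least 100, members fell to 3098, the median density to 1.22 per 100 kb (1.41 with a marked end, 0.971 without), and 10 genes held no member. With a length limit of 400 kb, 265 of 338 genes had a marked end (78.4%, against 76.9% of the 216 long genes). With 750 kb, 77 of 105 genes had one (73.3%), so the counts moved with the number of genes while the shares stayed close. With that limit the median density was 2.20, and the order by marked end turned (2.16 marked, 2.40 unmarked). Leaving out intervals of the smallest width gave a median score of 97. Requiring an interval to cover the end base left 67 genes with a marked end. The other 25 values stayed within 1.5 times for counts and within the 95% order-statistic interval (over genes or intervals) for medians. The largest shifts among them were 1.89 for unmarked genes with a 2.5 kb window, and 3.55 over all and 4.09 for marked genes with the 400 kb limit. They include the values of 3 alternatives chosen after seeing the data: leaving out members at starts in the promoter table (6732 members), counting overlapping long genes once (median density 3.00) and counting internal starts as ends (187 genes). Unknown depth limits the count of weak intervals, and 5.15% of members had the caller's smallest width.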
